A study of Mus musculus with 11 samples.

Results

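Interleukin-25 (IL-25) given alone was compared with vehicle in group 2 innate lymphoid cells (ILC2s), tissue-resident lymphocytes that respond to signals from epithelial cells by secreting type 2 cytokines. The 3 IL-25 libraries and the 3 vehicle libraries of the series were taken, 6 of its 11 libraries, and every gene with enough counts was tested, 15028 of the 27179 in the count table. In all groups the cells were ILC2s from the large intestine of C57BL/6 mice (wild type), obtained by sorting, and their 3 h culture medium contained 100 ng/ml of IL-2 and 100 ng/ml of IL-7, so that the vehicle cells were stimulated by those cytokines too. The cells given IL-25 had it at 100 ng/ml in addition. A second pair of groups was used to look at the same dose of IL-25 in other cultures. It held IL-25 plus ADM2 (n = 2) and ADM2 (n = 3), with 0.4 µg/ml of ADM2, a hormone related to calcitonin, in both of its groups. The labels do not tie replicates to separate mice, so p-values measure the spread between these libraries, which may be technical. Because these are bulk RNA samples, a change in the share of cells that express a gene and a change in its RNA per cell cannot be told apart.

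IL-25 is released in the gut, among other sources by tuft cells of the epithelium, and binds a receptor made of IL-17RB and IL-17RA. The receptor recruits the adaptor ACT1 (gene Traf3ip2) and the ubiquitin ligase TRAF6, which lead to the kinase TAK1, the IκB kinases and MAP kinases, and so to the transcription factors NF-κB and AP-1. In ILC2s this pathway is known for inducing IL-5, which supports eosinophils, and IL-13, which acts on goblet cells and smooth muscle, while IL-2 and IL-7 signal through JAK kinases and STAT5.

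The libraries held 25809256 to 34636127 counts with IL-25 and 27401500 to 34062330 with vehicle. Levels are given as TMM-normalised counts (CPM) and differences as log2 fold change of IL-25 over vehicle ± SE. Genes were called where edgeR's quasi-likelihood test, with Benjamini-Hochberg adjustment over all genes tested, gave an adjusted p below 0.05. TMM factors were 0.935 to 0.947 with IL-25 and 1.09 to 1.12 with vehicle. Pairs of libraries of the same group correlated at 0.954 or more in log2 CPM and none looked like a copy of another. Within the IL-25 group, replicates 1 and 3 stood at opposite ends of the third principal component of all libraries, which held 10.8% of the variance, and 876, 568 and 1040 tested genes were at 0 in IL-25 replicates 1 to 3, against 516, 528 and 491 in the vehicle replicates. All 14 ILC2 markers, which include Il5, Il13 and Il2ra, were present in both groups, with a summed level of 18948 to 20048 CPM with IL-25 and 8404 to 8917 CPM with vehicle. T cell markers (9 genes, among them Cd3d, Cd3e and Trac) summed to 9.03 to 10.6 CPM with IL-25 and 11.5 to 15.1 CPM with vehicle, and none of them was called. Jchain and Igkc, markers of plasma cells, had 479, 321 and 378 CPM with IL-25, against 247, 363 and 294 CPM with vehicle for Jchain and 838, 800.4 and 819.8 CPM with IL-25, against 592, 880.3 and 648 CPM with vehicle for Igkc, and neither was called. Of 9 markers of mast cells and basophils, Mcpt2, Mcpt4, Cma1 and Tpsb2 were at 0 in all 6 libraries, and Cpa3, Mcpt1 and Fcer1a stayed below 1 CPM. Kit, of the same list, had 485, 634 and 552 CPM with IL-25, against 496, 444 and 410.4 CPM with vehicle, and no member of that list was called. Epcam, an epithelial marker, had 136.5 to 185.4 CPM over the 6 libraries, and the other epithelial markers at most 11.5 CPM. Markers of fibroblasts and muscle, such as Col3a1, summed to 119.7 to 179.5 CPM with IL-25 and 135.0 to 150.4 CPM with vehicle. No member of these lists was called.

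Across the transcriptome 3503 genes were called, 23.3% of those tested. Of these, 1947 (13.0% of the tested genes) were higher with IL-25 and 1556 (10.4%) were lower. Changes of at least 2-fold were more often decreases, with 250 genes (1.66%) higher and 422 (2.81%) lower. The count of genes called higher was 1284 without vehicle replicate 1 and 1295 without vehicle replicate 3. With upper-quartile in place of TMM factors 44.6% of the calls were increases, against 55.6% with TMM factors. The 3 IL-25 libraries did not overlap the 3 vehicle libraries in 5447 genes, 36.2% of those tested. The direction of the calls moved with the level of the gene. In the sixth of genes with the highest mean level (at least 6.58 log2 CPM over the 6 libraries) 961 (38.4%) were called higher and 222 (8.86%) lower, with a median log2 fold change of 0.21. In the third sixth, between 1.67 and 3.84 log2 CPM, 122 (4.87%) were called higher and 382 (15.25%) lower, with a median of -0.17. Shares over all genes are therefore a rough measure for a list of mostly high or low genes. The plot of change against level shows both directions for each sixth of the genes.

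**Figure D1:**
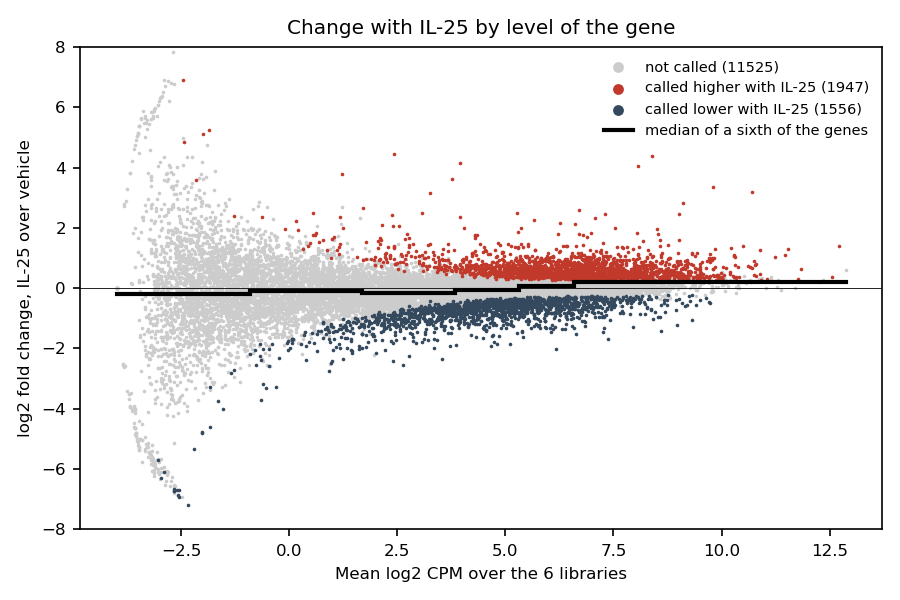
Log2 fold change of IL-25 over vehicle (y axis) against the mean level of each of the 15028 genes tested over the 6 libraries (x axis, log2 CPM). Red points are the 1947 genes called higher, blue the 1556 called lower, grey the rest, and black bars the median of each sixth of the genes, from -0.20 in the lowest to 0.21 in the highest.

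The 15 largest increases among called genes of at least 2 log2 CPM whose groups did not overlap held 7 interleukins, the growth factor Csf2, the chemokine Cxcl3 and 6 genes of other kinds. Hamp, which encodes the iron hormone hepcidin, had 26.6, 22.7 and 24.5 CPM with IL-25, against 1.23, 0.730 and 1.44 CPM with vehicle (log2 fold change 4.44 ± 0.29, edgeR adjusted p = 8.85e-08). Its close copy Hamp2 did not pass the filter on low counts, and reads could be split between them. Il9, a mast cell and ILC2 growth factor, had 1647, 1319 and 1606 CPM with IL-25, against 68.5, 76.0 and 75.8 CPM with vehicle (log2 fold change 4.38 ± 0.15, edgeR adjusted p = 7.34e-11). Tnip3, an inhibitor of NF-κB signalling that binds TNFAIP3, had 75.8, 57.4 and 64.7 CPM with IL-25, against 3.57, 2.57 and 4.93 CPM with vehicle (log2 fold change 4.16 ± 0.22, edgeR adjusted p = 1.10e-08). For all 3 genes every IL-25 library lay far above the highest vehicle library, with no overlap. The next in order were Il6 (4.04 ± 0.12), Il17f (3.63 ± 0.17), Il13 (3.34 ± 0.09), Il5 (3.18 ± 0.10), Il24 (3.15 ± 0.22) and Csf2 (2.83 ± 0.12). Dgat2, the enzyme of the last step of triglyceride synthesis, had 254 ± 5.54 CPM with IL-25, against 42.3 ± 1.80 CPM with vehicle (2.59 ± 0.09; SD of levels over n = 3 each). Marcks, an actin-binding substrate of protein kinase C (2.50 ± 0.19), Cdk5r1, the activator of the kinase CDK5 (2.50 ± 0.35), Cxcl3 (2.47 ± 0.15), Il22 (2.46 ± 0.12) and the secreted factor Ndnf (2.41 ± 0.35) completed the list.

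The 15 largest decreases by the same rule held no cytokine, but 4 receptors and several adaptors and enzymes. Paqr7, a membrane progestin receptor, had 2.38, 2.30 and 2.81 CPM with IL-25, against 14.3, 15.4 and 14.7 CPM with vehicle (log2 fold change -2.56 ± 0.25, edgeR adjusted p = 3.76e-06). Sla2, an adaptor that dampens antigen receptor signalling in lymphocytes, had 3.98, 5.21 and 6.08 CPM with IL-25, against 27.4, 28.7 and 23.0 CPM with vehicle (log2 fold change -2.37 ± 0.23, edgeR adjusted p = 3.97e-06). Nmur1, the receptor through which neuromedin U from enteric neurons activates ILC2s, had 22.6, 16.3 and 15.6 CPM with IL-25, against 66.8, 67.5 and 64.7 CPM with vehicle (log2 fold change -1.87 ± 0.15, edgeR adjusted p = 5.99e-07). In each of these the highest IL-25 library was below the lowest vehicle library. The lipid receptors Cnr2, a cannabinoid receptor (-2.17 ± 0.28), and Lpar5, a receptor of lysophosphatidic acid (-2.07 ± 0.31), belonged to the list, as did Nynrin (-2.41 ± 0.31), the sulfotransferase Chst2 (-2.01 ± 0.17), the sorting nexin Snx30 (-1.98 ± 0.19), the SH2-domain adaptor Sh2d3c (-1.93 ± 0.19), the calcineurin regulator Rcan3 (-1.86 ± 0.14), Tmem71 (-1.82 ± 0.24), the lysosomal sulfatase Sgsh (-1.82 ± 0.28) and the small GTPase Rab19 (-1.78 ± 0.22). Erdr1 stood out by its uneven replicates, with 3.33, 12.4 and 9.73 CPM with IL-25, against 24.4, 53.8 and 16.2 CPM with vehicle (-1.88 ± 0.45). In the cultures with ADM2 its log2 fold change had the other sign, 0.80, and it was not called (edgeR adjusted p = 0.355).

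**Figure D2:**
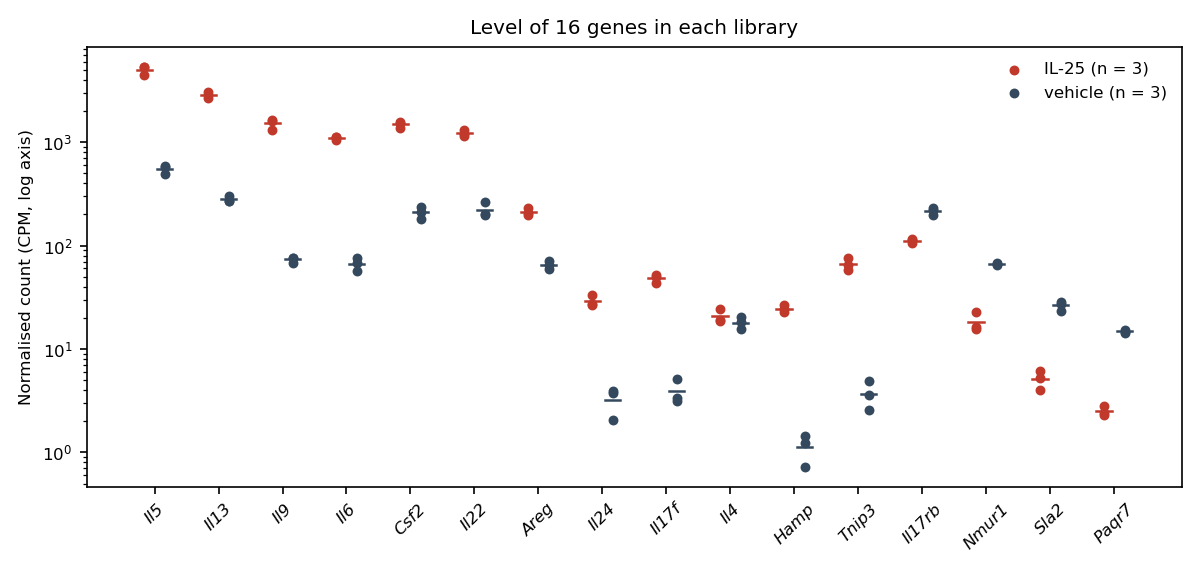
Level of 16 genes in each library (y axis, CPM on a log axis), with the 3 IL-25 libraries in red and left of the 3 vehicle libraries in blue, and a bar at each mean. The groups are apart for every gene except Il4, with Il17rb, Nmur1, Sla2 and Paqr7 lower with IL-25.

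Among the 17 genes of the IL-25 receptor and its proximal signalling, 8 were called higher (4 without vehicle replicate 1 and 5 without vehicle replicate 3) and 1 lower, with a median log2 fold change of 0.12, against 0.00 over all genes tested. The increases were 47.1% of the list, against 38.4% in the sixth of genes that holds its median level (6.82 log2 CPM). The one that fell was Il17rb, the subunit that binds IL-25, with 105, 116 and 112 CPM with IL-25, against 218, 199 and 230.3 CPM with vehicle (log2 fold change -0.96 ± 0.09, edgeR adjusted p = 2.13e-06). Every IL-25 library was below the lowest vehicle library. Il17ra, the shared subunit, had 192, 259 and 243 CPM with IL-25, against 176, 173 and 190.2 CPM with vehicle and rose (log2 fold change 0.36 ± 0.11, edgeR adjusted p = 0.0255). The kinases of the pathway rose by less than 2-fold, with log2 fold changes of 0.82 ± 0.11 for Ikbke, 0.61 ± 0.10 for Ikbkb and 0.38 ± 0.09 for Map3k7 (TAK1). The ubiquitin ligases Traf2 (0.48 ± 0.10) and Traf6 (0.40 ± 0.09) rose, whereas the adaptor Traf3ip2 was measured at 97.4 ± 15.8 CPM with IL-25, against 95.4 ± 8.64 CPM with vehicle and was not called (log2 fold change 0.03 ± 0.13, edgeR adjusted p = 0.905). The call was lost for Il17ra without vehicle replicate 1, 2 or 3 or IL-25 replicate 2 or 3 (edgeR adjusted p up to 0.119), Traf6 without vehicle replicate 3 (edgeR adjusted p = 0.0544) and Map3k7 without vehicle replicate 1 (edgeR adjusted p = 0.0691).

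Receptors of other cytokines that act on ILC2s moved in both directions. In the list of alarmin and common gamma chain receptors 7 of 19 were called higher and 2 lower (1 without vehicle replicate 1 or 3 or IL-25 replicate 3; median 0.27). These shares, 36.8% and 10.5%, were near the 38.4% and 8.86% in the sixth of genes that holds the list's median level (6.65 log2 CPM). Il2ra, the high-affinity subunit for IL-2, had 3537, 5639 and 4921 CPM with IL-25, against 1913, 1994 and 1765 CPM with vehicle (log2 fold change 1.31 ± 0.14, edgeR adjusted p = 7.64e-06). The IL-33 receptor Il1rl1 had 676, 616 and 614 CPM with IL-25, against 427, 429 and 458 CPM with vehicle (log2 fold change 0.54 ± 0.07, edgeR adjusted p = 1.01e-04), so that the receptor of that alarmin was higher and Il17rb lower in the same libraries. Il4ra (0.51 ± 0.08), Il2rb (0.33 ± 0.07) and Il18rap (0.66 ± 0.13) also rose, while Il9r fell (-0.34 ± 0.11) and so did Irak4, a kinase of IL-33 signalling (-0.76 ± 0.13). Il7r was measured at 267 ± 3.97 CPM with IL-25, against 282 ± 18.4 CPM with vehicle without passing the test (edgeR adjusted p = 0.567). Of 20 other cytokine receptors 2 were called higher (1 without vehicle replicate 1 or 3 and 4 without vehicle replicate 2) and 4 lower (2 without IL-25 replicate 1; median 0.04, and -0.04 with upper-quartile factors). Il10ra, a subunit of the IL-10 receptor, rose (0.93 ± 0.09). Il12rb1, shared by the receptors of IL-12 and IL-23, fell to 108 ± 0.730 CPM with IL-25, against 213 ± 25.5 CPM with vehicle (log2 fold change -0.97 ± 0.10, edgeR adjusted p = 5.28e-06), and the interferon receptor subunits Ifngr1 (-0.45 ± 0.10) and Ifnar1 (-0.43 ± 0.14) fell too. Il9r lost the call without vehicle replicate 1 or 3 or IL-25 replicate 2 or 3 (edgeR adjusted p up to 0.0918) and Ifnar1 lost the call without vehicle replicate 1 or 2 or IL-25 replicate 1 (edgeR adjusted p up to 0.0824).

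Most of the NF-κB genes rose. Of 25 tested genes for its subunits, inhibitors and feedback targets 19 (76.0%) were called higher and 1 (4.0%) lower (0 without IL-25 replicate 2 or 3), with a median of 0.80. The shares were 13.0% and 10.4% over all genes. They were 38.4% and 8.86% in the sixth of genes that holds the list's median level (7.73 log2 CPM). All 5 subunit genes rose, Nfkb2 by 1.16 ± 0.09, Relb by 0.80 ± 0.09, Rel by 0.74 ± 0.15, Nfkb1 by 0.48 ± 0.07 and Rela by 0.31 ± 0.09. The inhibitor Nfkbia (IκBα), which is resynthesised when NF-κB is active, had 954, 1385 and 1478 CPM with IL-25, against 571, 617 and 539 CPM with vehicle (log2 fold change 1.14 ± 0.14, edgeR adjusted p = 2.53e-05). Tnfaip3 (A20), a ubiquitin-editing enzyme that ends the signal, had 1689, 1879 and 1931 CPM with IL-25, against 923, 802 and 863 CPM with vehicle (log2 fold change 1.09 ± 0.08, edgeR adjusted p = 4.21e-07). Both had 3 IL-25 libraries above all vehicle libraries. Further members that rose by about 2-fold or more were Cd83 (2.27 ± 0.14), Nfkbib (1.34 ± 0.10), Traf1 (1.14 ± 0.11), Cflar (1.08 ± 0.15), Icam1 (1.05 ± 0.10) and the apoptosis inhibitor Birc3 (1.02 ± 0.08). Tnfaip8 was the member that fell (-0.38 ± 0.11), and the deubiquitinase Cyld was not called (log2 fold change 0.03 ± 0.10, edgeR adjusted p = 0.879). The call was lost for Rela without vehicle replicate 2 or 3 or IL-25 replicate 2 or 3 (edgeR adjusted p up to 0.104) and Tnfaip8 without IL-25 replicate 2 or 3 (edgeR adjusted p up to 0.0844).

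NF-κB binds 10-base sites close to its targets, so the 300 bases around the start sites of these genes were searched on either strand for a κB motif, taken as GGG, any 2 bases and then TTTCC or TTCCC. In RefSeq's GRCm38.p6 promoters (250 bases before to 50 after the start) 10 of the 19 list members with a promoter held such a match, 52.6%. The share was 4.58% of the 11253 tested genes with a promoter, 5.45% of those called higher, 4.05% of those called lower and 3.73% of all 27025 genes in the table. The list was partly defined by known targets of NF-κB, and a match is only a description of the letters. The 4 members with the smallest p that held one are shown, 5′ to 3′ on the gene's strand, with the matches in capitals:
Tnip3 (chr6:65590148-65590447, + strand): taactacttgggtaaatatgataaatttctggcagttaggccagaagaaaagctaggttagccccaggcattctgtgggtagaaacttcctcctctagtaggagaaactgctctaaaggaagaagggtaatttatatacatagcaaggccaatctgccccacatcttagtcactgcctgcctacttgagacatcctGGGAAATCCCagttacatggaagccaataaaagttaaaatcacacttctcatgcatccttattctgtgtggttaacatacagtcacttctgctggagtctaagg
Tnfaip3 (chr10:19015361-19015660, - strand): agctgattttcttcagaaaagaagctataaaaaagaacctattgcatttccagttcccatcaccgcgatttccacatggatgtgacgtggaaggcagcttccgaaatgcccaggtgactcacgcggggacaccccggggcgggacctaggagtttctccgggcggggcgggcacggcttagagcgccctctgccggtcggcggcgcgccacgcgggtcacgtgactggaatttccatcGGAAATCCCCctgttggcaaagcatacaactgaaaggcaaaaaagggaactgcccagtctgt
Nfkb2 (chr19:46304487-46304786, + strand): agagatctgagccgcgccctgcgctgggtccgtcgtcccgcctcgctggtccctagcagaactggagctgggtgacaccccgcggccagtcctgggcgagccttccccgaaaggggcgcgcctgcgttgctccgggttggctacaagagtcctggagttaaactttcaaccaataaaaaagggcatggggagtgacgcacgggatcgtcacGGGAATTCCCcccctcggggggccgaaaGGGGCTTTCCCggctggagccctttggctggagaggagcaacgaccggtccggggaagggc
Bcl3 (chr7:19822706-19823005, - strand): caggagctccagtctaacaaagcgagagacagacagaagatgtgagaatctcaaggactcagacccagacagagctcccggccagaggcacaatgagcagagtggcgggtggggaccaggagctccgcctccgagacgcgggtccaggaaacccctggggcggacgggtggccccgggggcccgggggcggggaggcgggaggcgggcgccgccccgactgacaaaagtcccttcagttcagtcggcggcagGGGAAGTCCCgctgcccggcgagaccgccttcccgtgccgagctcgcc
Nfkb2 had overlapping matches, which are capitalised together, and Bcl3, a nuclear IκB protein, rose by 0.94 ± 0.10. In the cytokine list 3 of 18 members with a promoter held a match, 16.7%.

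Cytokines and growth factors had the highest median of the 43 lists. Of 23 tested members 14 were called higher, 12 of them by at least 2-fold, and 1 was called lower (median log2 fold change 1.05). Together the list took 1.31% to 1.48% of all counts with IL-25 and 0.300% to 0.328% with vehicle. Il5 had 5321, 4436 and 5281 CPM with IL-25, against 495, 589 and 579 CPM with vehicle (log2 fold change 3.18 ± 0.10, edgeR adjusted p = 2.57e-11). Il13 had 2834, 2644 and 3078 CPM with IL-25, against 269.8, 302 and 272 CPM with vehicle (log2 fold change 3.34 ± 0.09, edgeR adjusted p = 1.92e-11). In both, the spread within a group was small beside the gap between the groups. Il4, the third type 2 cytokine, behaved differently: it had 18.7, 19.1 and 24.6 CPM with IL-25, against 18.2, 20.3 and 15.5 CPM with vehicle, the groups overlapped, and it was not called (log2 fold change 0.21 ± 0.19, edgeR adjusted p = 0.488). Csf2 (GM-CSF) had 1567, 1357 and 1523 CPM with IL-25, against 180.5, 236 and 211 CPM with vehicle (log2 fold change 2.83 ± 0.12, edgeR adjusted p = 1.22e-09), and Il6 had 1128, 1042 and 1122 CPM with IL-25, against 56.6, 75.4 and 67.4 CPM with vehicle (log2 fold change 4.04 ± 0.12, edgeR adjusted p = 2.57e-11). Both lay apart from vehicle in every library. Areg (amphiregulin, an epidermal growth factor family ligand with a role in tissue repair) had 207, 199 and 232 CPM with IL-25, against 64.3, 71.1 and 59.8 CPM with vehicle (log2 fold change 1.71 ± 0.11, edgeR adjusted p = 8.54e-08), a smaller rise than that of the interleukins. Hbegf, a related ligand (1.05 ± 0.11), Penk, the precursor of enkephalins (1.17 ± 0.16), Lif (0.99 ± 0.11) and Vegfa (0.74 ± 0.18) rose as well. Csf1 fell (-0.51 ± 0.14). Ifng and Tgfb1 were not called (0.67 ± 0.31 and 0.15 ± 0.09).

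Il22 and Il17f, interleukins usually linked to type 3 lymphocytes, rose in the same libraries, and so did Il24, of the IL-10 family. Il22 had 1318, 1138 and 1206 CPM with IL-25, against 199.8, 266 and 198 CPM with vehicle (log2 fold change 2.46 ± 0.12, edgeR adjusted p = 5.35e-09), Il17f had 49.6, 43.5 and 52.0 CPM with IL-25, against 3.12, 5.17 and 3.38 CPM with vehicle (log2 fold change 3.63 ± 0.17, edgeR adjusted p = 2.47e-09) and Il24 had 33.0, 26.3 and 27.5 CPM with IL-25, against 2.08, 3.90 and 3.75 CPM with vehicle (log2 fold change 3.15 ± 0.22, edgeR adjusted p = 2.44e-07). The ILC3 markers Il23r, Ccr6, Ncr1 and Cxcr5 did not exceed 4.64 CPM in any of the 6 libraries and were not called. Il10 rose at a low level, with 1.73, 3.28 and 0.988 CPM with IL-25, against 0.130, 0.487 and 0.902 CPM with vehicle (log2 fold change 1.96 ± 0.65, edgeR adjusted p = 0.0408). Il10 lost the call without vehicle replicate 1 or 2 or IL-25 replicate 1 or 2 (edgeR adjusted p up to 0.181).

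In the list of chemokine ligands 5 of 14 tested members were called higher and 0 lower (median 0.12). The neutrophil attractants Cxcl3, with 331, 389.9 and 397 CPM with IL-25, against 62.8, 83.8 and 55.4 CPM with vehicle (log2 fold change 2.47 ± 0.15, edgeR adjusted p = 4.77e-08), Cxcl2 (2.33 ± 0.15) and Cxcl1 (0.68 ± 0.15) rose, with Cxcl16 (1.75 ± 0.16) and the CXCR3 ligand Cxcl10 (1.15 ± 0.17). Ccl1, a ligand of CCR8, was measured at 32.3 ± 4.58 CPM with IL-25, against 30.6 ± 5.60 CPM with vehicle and was not called. Of 14 TNF superfamily ligands 5 were called higher (3 without vehicle replicate 1, 2 or 3 or IL-25 replicate 1 or 3) and 0 lower (median 0.35). Tnfsf4 (OX40 ligand), a costimulator of T cells, had 67.2, 52.3 and 53.6 CPM with IL-25, against 21.3, 22.9 and 21.1 CPM with vehicle (log2 fold change 1.41 ± 0.14, edgeR adjusted p = 5.54e-06), and Tnf rose by 0.54 ± 0.12. Among the 19 receptors of that family 8 were called higher and 3 lower (median 0.27). Tnfrsf11a (RANK) had 198, 215 and 204 CPM with IL-25, against 68.7, 58.4 and 55.0 CPM with vehicle (log2 fold change 1.76 ± 0.13, edgeR adjusted p = 2.89e-07). Tnfrsf25 (DR3), the receptor of TL1A on ILC2s, rose by 0.57 ± 0.10, and Cd27, a costimulatory receptor, fell (-1.68 ± 0.19).

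Transcription factors of the early response rose in part. Of 24 immediate early factors 13 were called higher and 0 lower (median 0.45). Batf, an AP-1 family member, had 694, 568 and 754 CPM with IL-25, against 183, 260.1 and 222 CPM with vehicle (log2 fold change 1.60 ± 0.14, edgeR adjusted p = 1.32e-06). Nr4a1, an orphan nuclear receptor, had 1440.2, 1990.0 and 2014 CPM with IL-25, against 926, 846 and 826 CPM with vehicle (log2 fold change 1.07 ± 0.11, edgeR adjusted p = 7.59e-06). Both lay above vehicle in every library. Junb (0.78 ± 0.07), Jun (0.64 ± 0.14), Fosl1 (1.00 ± 0.18) and Egr2 (0.75 ± 0.18) rose, whereas Fos (0.22 ± 0.09; edgeR adjusted p = 0.0820) and Egr1 (0.11 ± 0.21; adjusted p = 0.769) were not called at this 3 h time. The AP-1 motif TGACTCA, which reads TGAGTCA on the other strand, was present in 0 of the 19 promoters of this list and in 3 of the 18 of the cytokine list, against 4.76% of tested genes. Of 15 MAP kinase phosphatases and Sprouty family members 5 were called higher and 2 lower (1 without vehicle replicate 1 or 3 or IL-25 replicate 1; median -0.20). Dusp8 (1.47 ± 0.27) and Dusp2 (1.17 ± 0.14) rose, and Dusp6, a phosphatase of ERK, fell with 62.0, 40.3 and 36.3 CPM with IL-25, against 113, 111 and 115 CPM with vehicle (log2 fold change -1.29 ± 0.16, edgeR adjusted p = 2.93e-05).

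JAK-STAT genes were called higher in 12 of 25 and lower in 4 (median 0.33). Stat5a, which acts downstream of IL-2 and IL-7, had 546, 812 and 815 CPM with IL-25, against 178, 174 and 201 CPM with vehicle (log2 fold change 1.97 ± 0.13, edgeR adjusted p = 1.29e-07). Jak2 had 1549, 1360.5 and 1367 CPM with IL-25, against 575, 577 and 607 CPM with vehicle (log2 fold change 1.28 ± 0.09, edgeR adjusted p = 1.66e-07). Every IL-25 library was above every vehicle library in both. Stat5b (0.93 ± 0.10), Jak1 (0.90 ± 0.09) and the survival kinases Pim1 (0.93 ± 0.10), Pim2 (1.17 ± 0.11) and Pim3 (1.04 ± 0.08) rose. Stat2, which serves interferons, fell (-0.83 ± 0.19), as did the feedback inhibitor Socs1 (-0.40 ± 0.10) and the phosphatase Ptpn6 (-0.79 ± 0.14). Of 32 interferon-stimulated genes 1 was called higher and 7 lower (4 without vehicle replicate 3 or IL-25 replicate 3 and 11 without IL-25 replicate 2; median -0.50). Irf8 was the one that rose (1.07 ± 0.15). The decreases were 21.9% of the list, near the 19.2% in the sixth of genes that holds its median level (4.75 log2 CPM). The increases were 3.1%, against 12.1% in that sixth. Samhd1, a nucleotide hydrolase with antiviral activity, fell to 86.0 ± 7.24 CPM with IL-25, against 158 ± 8.70 CPM with vehicle (log2 fold change -0.88 ± 0.10, edgeR adjusted p = 1.11e-05), and Dtx3l (-0.61 ± 0.12) and the RNA sensor gene Ddx58 (-0.50 ± 0.11) fell. Isg15 and Ifit1 were not called (edgeR adjusted p = 0.261 and 0.0905).

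Regulators of mRNA decay, which limit cytokine transcripts, were called higher in 7 of 19 and lower in 2 (1 without vehicle replicate 3 or IL-25 replicate 1; median 0.12). These shares, 36.8% and 10.5%, were near the 38.4% and 8.86% in the sixth of genes that holds the list's median level (7.14 log2 CPM). Zc3h12a (Regnase-1), an endoribonuclease that cuts Il6 mRNA among others, had 292, 462 and 410.2 CPM with IL-25, against 175, 144 and 154 CPM with vehicle (log2 fold change 1.30 ± 0.14, edgeR adjusted p = 7.71e-06). The related Zc3h12c rose (0.81 ± 0.13), Zfp36l2 fell (-0.83 ± 0.13), and Zfp36, whose product binds AU-rich elements of cytokine mRNAs, was not called (log2 fold change 0.20 ± 0.16, edgeR adjusted p = 0.426).

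Myc and the genes of ribosome production rose. Myc, a transcription factor that drives genes of ribosome production and metabolism, had 618, 750.3 and 753 CPM with IL-25, against 267, 259 and 258 CPM with vehicle (log2 fold change 1.44 ± 0.09, edgeR adjusted p = 6.64e-08). Mycn had 36.0, 34.0 and 34.9 CPM with IL-25, against 11.4, 10.0 and 11.8 CPM with vehicle (log2 fold change 1.66 ± 0.12, edgeR adjusted p = 2.07e-07). In both genes the 3 IL-25 libraries lay above the 3 vehicle libraries. Of the 14 genes of the MYC network 5 were called higher and 1 lower, the MYC antagonist Mxd4 (-0.76 ± 0.16). In the list of ribosome biogenesis and RNA polymerase I genes 45 of 48 were called higher and 0 lower, with a median of 0.80. Rrp9, of the small subunit processome, had 232, 230.5 and 269 CPM with IL-25, against 101, 110.2 and 105 CPM with vehicle (log2 fold change 1.21 ± 0.10, edgeR adjusted p = 1.07e-06), and Npm1 (nucleophosmin) had 1249 ± 122 CPM with IL-25, against 626 ± 89.3 CPM with vehicle (1.00 ± 0.11). The box C/D snoRNP proteins Nop56 (1.15 ± 0.10) and Nop58 (1.06 ± 0.09) and the polymerase subunits Polr1a (0.71 ± 0.12) and Polr1b (0.93 ± 0.11) rose. The 3 that were not called, Ubtf, Fbl and Tcof1, had log2 fold changes of 0.13, 0.40 and 0.43. Nop56, Nop58 and Wdr43 host small nucleolar RNAs in their introns, and whether those reads count for the host gene is not given in the sources used here.

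MYC binds the E-box CACGTG, and that palindrome stood in 9 of the 43 list members with a promoter, 20.9%, and in 5 of 28 genes of nucleotide and one-carbon synthesis, 17.9%. It stood in 16.5% of the genes called higher, 10.5% of those called lower, 11.3% of the tested genes and 8.09% of all genes in the table. The 3 ribosome biogenesis genes with the smallest p that held it are shown with the E-box in capitals, from RefSeq's GRCm38.p6 promoters:
Wdr43 (chr17:71615965-71616264, + strand): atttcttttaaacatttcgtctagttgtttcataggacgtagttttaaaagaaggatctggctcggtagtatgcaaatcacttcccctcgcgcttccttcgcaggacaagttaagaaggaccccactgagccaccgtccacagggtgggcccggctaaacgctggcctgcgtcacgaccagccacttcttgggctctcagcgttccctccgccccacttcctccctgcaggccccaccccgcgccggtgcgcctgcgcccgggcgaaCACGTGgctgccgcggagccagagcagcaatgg
Tsr1 (chr11:74897830-74898129, + strand): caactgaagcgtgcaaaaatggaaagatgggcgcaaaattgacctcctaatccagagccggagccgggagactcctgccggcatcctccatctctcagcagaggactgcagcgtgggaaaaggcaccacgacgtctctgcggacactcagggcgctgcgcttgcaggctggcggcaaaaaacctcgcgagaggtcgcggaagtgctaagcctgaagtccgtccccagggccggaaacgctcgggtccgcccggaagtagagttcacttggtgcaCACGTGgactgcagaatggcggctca
Nop2 (chr6:125131633-125131932, + strand): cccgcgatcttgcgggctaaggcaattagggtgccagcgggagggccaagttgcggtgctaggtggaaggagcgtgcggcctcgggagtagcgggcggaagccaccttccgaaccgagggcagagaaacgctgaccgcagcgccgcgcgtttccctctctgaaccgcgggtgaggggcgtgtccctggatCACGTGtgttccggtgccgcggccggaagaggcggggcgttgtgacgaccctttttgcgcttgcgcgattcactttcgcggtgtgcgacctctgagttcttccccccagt
Wdr43, a factor of the small subunit processome, had 525, 447 and 465 CPM with IL-25, against 203, 235 and 220.3 CPM with vehicle (log2 fold change 1.13 ± 0.09, edgeR adjusted p = 1.04e-06), and Tsr1 (1.12 ± 0.10) and the rRNA methyltransferase Nop2 (0.98 ± 0.11) rose by a like amount.

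Genes that supply translation rose with them. Of 27 translation factors 23 were called higher and 3 lower (median 0.52). Eef1e1, a scaffold of the tRNA synthetase complex, had 149, 124 and 144 CPM with IL-25, against 35.8, 45.7 and 38.0 CPM with vehicle (log2 fold change 1.80 ± 0.13, edgeR adjusted p = 2.07e-07), and Eif4a1 (1.03 ± 0.09), Eif4e (0.98 ± 0.11) and Eif5a (0.65 ± 0.10) rose. The 3 that fell all restrain translation, namely Pdcd4, an inhibitor of eIF4A with 35.8, 33.3 and 33.6 CPM with IL-25, against 75.7, 85.9 and 74.2 CPM with vehicle (log2 fold change -1.20 ± 0.10, edgeR adjusted p = 1.28e-06), the elongation factor kinase Eef2k (-0.76 ± 0.26) and the eIF4E-binding protein Eif4ebp2 (-0.58 ± 0.13). Eef2k lost the call without vehicle replicate 1 or 2 or IL-25 replicate 1 or 2 (edgeR adjusted p up to 0.166). Of 20 cytosolic aminoacyl-tRNA synthetases 15 were called higher and 0 lower (median 0.54), led by Yars (0.77 ± 0.08), Gars (0.74 ± 0.09) and Tars (0.70 ± 0.09). Mitochondrial ribosomal proteins were called higher in 13 of 30 (6 without vehicle replicate 1 and 7 without vehicle replicate 3) and lower in 0 (1 without vehicle replicate 3; median 0.39). Among 28 chaperones 22 were called higher and 0 lower (median 0.65), with Hspa8 at 3454 ± 407 CPM with IL-25, against 1696 ± 80.0 CPM with vehicle (log2 fold change 1.03 ± 0.09, edgeR adjusted p = 1.21e-06), Hsp90aa1 (0.92 ± 0.10) and all 8 tested subunits of the chaperonin CCT, such as Cct3 (0.77 ± 0.11). Genes of the unfolded protein and integrated stress response were called higher in 13 of 25 (8 without vehicle replicate 1) and lower in 0 (median 0.35), among them Hspa5 (BiP, 0.79 ± 0.09) and Atf4 (0.60 ± 0.09). Xbp1 and Ddit3 (CHOP) were not called (-0.08 ± 0.09 and -0.09 ± 0.18).

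Biosynthetic enzymes and transporters followed. Of 31 genes of nucleotide and one-carbon synthesis 21 were called higher and 1 lower (0 without IL-25 replicate 3; median 0.42). Ctps, the first enzyme specific to CTP synthesis, had 157, 126 and 137 CPM with IL-25, against 54.0, 55.3 and 50.8 CPM with vehicle (log2 fold change 1.39 ± 0.10, edgeR adjusted p = 2.89e-07), and the mitochondrial folate enzyme Mthfd2 had 196, 189 and 194 CPM with IL-25, against 79.1, 87.8 and 75.3 CPM with vehicle (log2 fold change 1.26 ± 0.09, edgeR adjusted p = 3.33e-07). Shmt1 (1.42 ± 0.13) and Ppat, the first step of purine synthesis (1.15 ± 0.12), also rose by more than 2-fold. Of 17 genes of polyamine and arginine metabolism 7 were called higher and 0 lower (1 without IL-25 replicate 1; median 0.31), with the spermidine synthase Srm (1.12 ± 0.10) and the rate-limiting Odc1 (0.43 ± 0.08). Arg1, an arginase known from lung ILC2s, was measured at 51.1 ± 11.1 CPM with IL-25, against 63.6 ± 12.1 CPM with vehicle and was not called (log2 fold change -0.32 ± 0.16, edgeR adjusted p = 0.169). Amino acid transporters were called higher in 10 of 20 and lower in 3 (median 0.34). Slc7a5, the exchanger of large neutral amino acids, had 559, 680.5 and 651 CPM with IL-25, against 335, 292 and 325 CPM with vehicle (log2 fold change 0.99 ± 0.10, edgeR adjusted p = 3.70e-06), whereas Slc43a2 (-1.18 ± 0.16), Slc36a1 (-0.86 ± 0.13) and Slc7a8 (-0.83 ± 0.16) fell. Tfrc, the transferrin receptor, had 699.8, 613 and 554 CPM with IL-25, against 214, 248 and 249 CPM with vehicle (log2 fold change 1.40 ± 0.11, edgeR adjusted p = 7.10e-07), 1 of 7 genes of iron handling called higher among 15 tested, with 0 lower (median 0.29).

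Glucose and lipid genes moved in both directions. In the list of glycolysis and the pentose phosphate pathway 8 of 26 were called higher (4 without vehicle replicate 1 or 3) and 2 lower (1 without vehicle replicate 1 or 3 or IL-25 replicate 2 or 3; median 0.15). These shares, 30.8% and 7.69%, stand against 38.4% and 8.86% in the sixth of genes that holds the list's median level (7.33 log2 CPM). Hexokinases moved apart, with Hk2 higher (0.92 ± 0.14) and Hk1 lower (-0.75 ± 0.10). The lactate transporter Slc16a1 had 184, 148 and 154 CPM with IL-25, against 58.8, 62.7 and 61.5 CPM with vehicle (log2 fold change 1.41 ± 0.12, edgeR adjusted p = 8.89e-07), while the glucose transporter Slc2a1 was not called (0.19 ± 0.09). Of 26 genes of triglyceride storage and fatty acid handling 8 were called higher (3 without vehicle replicate 1 and 4 without vehicle replicate 3) and 5 lower (median 0.24). Dgat2, given above, and Hilpda, a lipid droplet protein (0.74 ± 0.12), rose. Cpt1a, which brings fatty acids into mitochondria for oxidation, had 20.7, 29.3 and 27.2 CPM with IL-25, against 71.1, 68.5 and 68.1 CPM with vehicle (log2 fold change -1.43 ± 0.14, edgeR adjusted p = 4.51e-06), and the lipid droplet coat proteins Plin2 (-0.61 ± 0.12) and Plin3 (-1.39 ± 0.14) fell. Of 24 cholesterol genes 7 were called higher and 2 lower (1 without vehicle replicate 1 or IL-25 replicate 1 or 3; median 0.04, and -0.03 with upper-quartile factors). Those that rose held the regulated enzyme Hmgcs1 (0.68 ± 0.09), and those that fell the efflux transporter Abcg1 (-0.49 ± 0.14) and Dhcr7 (-1.05 ± 0.20). The call was lost for Abcg1 without vehicle replicate 1 or IL-25 replicate 1 or 3 (edgeR adjusted p up to 0.0724). Ptgs2, the inducible cyclooxygenase of prostaglandin synthesis, had 512, 530.2 and 468 CPM with IL-25, against 144, 146 and 131 CPM with vehicle (log2 fold change 1.84 ± 0.09, edgeR adjusted p = 5.86e-09), 1 of 2 called higher among 12 genes of eicosanoid synthesis, with 1 lower (0 without IL-25 replicate 3; median -0.10). The shares of that list, 16.7% and 8.33%, were near those over all genes. In the sixth of genes that holds its median level (1.77 log2 CPM) 4.87% were called higher and 15.25% lower.

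**Figure D3:**
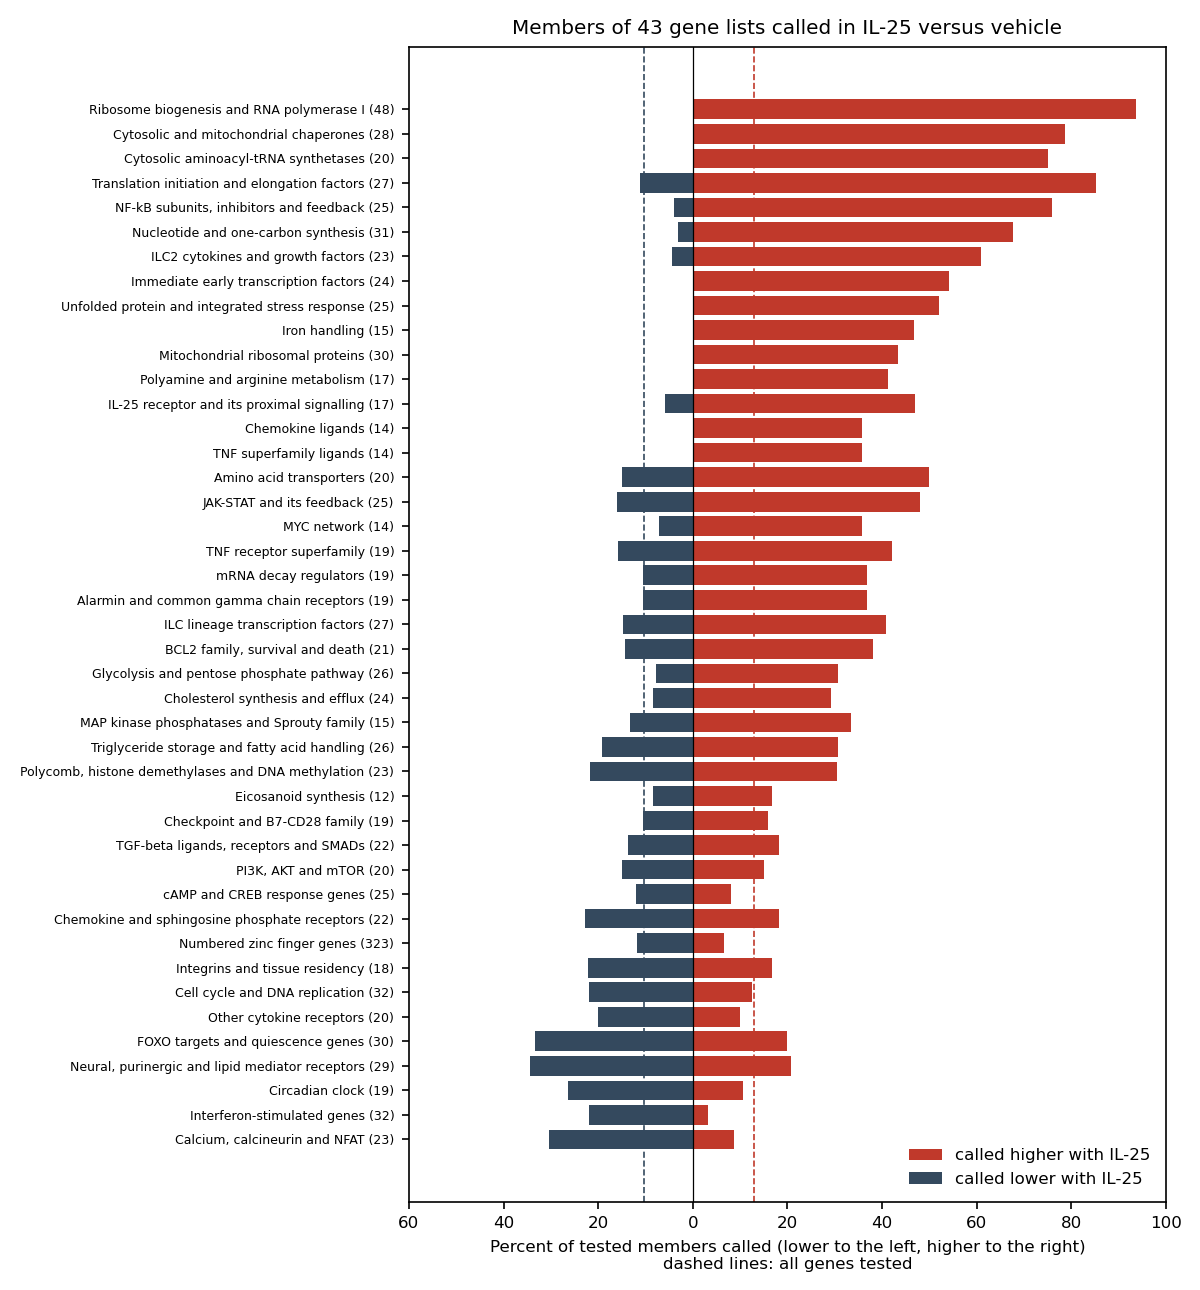
Percent of the tested members of 43 gene lists that were called in IL-25 versus vehicle, higher to the right in red and lower to the left in blue, with the number of members tested in parentheses. Dashed lines mark all genes tested, 13.0% higher and 10.4% lower. These shares depended on level. In the sixth of genes with the highest levels (at least 6.58 log2 CPM) 38.4% were called higher. Among others, the median levels of the IL-25 receptor (6.82), alarmin receptor (6.65), mRNA decay (7.14), ILC lineage factor (6.87) and glycolysis (7.33) lists lie in that sixth. So do those of the cAMP (6.6), PI3K (6.67) and integrin (7.53) lists. Ribosome biogenesis, translation factors, chaperones and NF-κB genes reach furthest to the right, and receptors of neural, purinergic and lipid mediators reach among the furthest to the left.

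Receptors through which ILC2s sense nerves, purines and lipids were called lower in 10 of 29 and higher in 6 (median -0.33). Besides Nmur1, Cnr2 and Lpar5, the receptor Lpar6 had 71.3, 56.1 and 53.6 CPM with IL-25, against 142, 164 and 152 CPM with vehicle (log2 fold change -1.34 ± 0.12, edgeR adjusted p = 2.01e-06). Its gene lies within Rb1, so reads of that gene may count for it. Ptger1 (-0.91 ± 0.16), Ltb4r1, a leukotriene B4 receptor (-0.71 ± 0.11), and Ramp3, a partner of calcitonin family receptors (-0.43 ± 0.09), fell. Ptger2, the prostaglandin E2 receptor that raises cAMP, had 121, 108 and 123 CPM with IL-25, against 54.4, 52.9 and 43.4 CPM with vehicle (log2 fold change 1.23 ± 0.11, edgeR adjusted p = 1.46e-06), and the adenosine receptor Adora2a (0.46 ± 0.08) rose too. The receptors Vipr2 and Calcrl were not called (-0.91 ± 0.41 and 0.04 ± 0.14). Of 25 genes of the cAMP response 2 were called higher (5 without IL-25 replicate 1) and 3 lower (5 without IL-25 replicate 2; median 0.01, and -0.06 with upper-quartile factors). In the sixth of genes that holds the list's median level (6.6 log2 CPM) 38.4% were called higher and 8.86% lower. The list thus had a smaller share of increases than that sixth. Creb1 was higher (0.76 ± 0.10) and the adenylate cyclase Adcy7 lower (-0.89 ± 0.13).

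Calcium and NFAT genes were called lower in 7 of 23 and higher in 2 (1 without vehicle replicate 2 or IL-25 replicate 2; median -0.18). Rcan3 had 13.4, 16.4 and 13.96 CPM with IL-25, against 57.0, 50.7 and 51.8 CPM with vehicle (log2 fold change -1.86 ± 0.14, edgeR adjusted p = 3.21e-07), and Nfatc2 had 37.1, 46.0 and 41.4 CPM with IL-25, against 100.0, 82.9 and 83.6 CPM with vehicle (log2 fold change -1.10 ± 0.14, edgeR adjusted p = 4.26e-05). Plcg1 (-0.92 ± 0.17) and the calcium channel Itpr3 (-0.73 ± 0.13) fell, and the channel subunit Orai1 rose (0.49 ± 0.11). Among 20 PI3K, AKT and mTOR genes 3 were called higher (1 without vehicle replicate 1 or 3) and 3 lower (median -0.05). In the sixth of genes that holds the list's median level (6.67 log2 CPM) 38.4% were called higher and 8.86% lower. The list thus had a smaller share of increases and a larger share of decreases than that sixth. Pik3r5 was higher (0.81 ± 0.15) and Pik3r1, a regulatory subunit, lower (-0.91 ± 0.11). FOXO targets and quiescence genes were called lower in 10 of 30 and higher in 6 (median -0.03). Txnip, an arrestin that limits glucose uptake, fell to 158 ± 3.74 CPM with IL-25, against 268 ± 23.4 CPM with vehicle (log2 fold change -0.76 ± 0.09, edgeR adjusted p = 3.04e-05), and Klf3 (-0.83 ± 0.17) and Pik3ip1 (-1.07 ± 0.28) fell. Foxo1 itself rose (0.71 ± 0.12), as did Btg1 (0.90 ± 0.07) and Foxp1 (0.65 ± 0.10), so that the members did not move one way.

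Cell cycle genes gave 4 higher (2 without vehicle replicate 1 or 3 or IL-25 replicate 3) and 7 lower (4 without vehicle replicate 1 or IL-25 replicate 2 or 3) of 32 (median -0.05). These shares, 12.5% and 21.9%, were near the 12.1% and 19.2% in the sixth of genes that holds the list's median level (5.19 log2 CPM). Ccnd2, a D-type cyclin, rose (0.63 ± 0.10), and Ccnd3 (-0.83 ± 0.10) and the pocket protein gene Rbl2 (-1.26 ± 0.11) fell. The proliferation genes Mki67 and Top2a were not called (-0.07 ± 0.15 and -0.00 ± 0.14). BCL2 family and death genes were called higher in 8 of 21 (5 without vehicle replicate 3) and lower in 3 (1 without vehicle replicate 1 or 2 or IL-25 replicate 1 or 3; median 0.24). Bcl2 had 47.0, 55.2 and 46.0 CPM with IL-25, against 135, 125 and 121 CPM with vehicle (log2 fold change -1.36 ± 0.11, edgeR adjusted p = 7.17e-07), while the related survival gene Bcl2l1 rose to 261 ± 16.3 CPM with IL-25, against 156 ± 13.2 CPM with vehicle (0.74 ± 0.10). Bcl2l11 (BIM), which promotes death, rose too, with 469, 654 and 583 CPM with IL-25, against 272, 252 and 271 CPM with vehicle (log2 fold change 1.10 ± 0.11, edgeR adjusted p = 4.04e-06).

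Transcription factors of the ILC lineage kept a mixed pattern, with 11 of 27 called higher and 4 lower (1 without IL-25 replicate 1 and 2 without vehicle replicate 1 or 3; median 0.09). These shares, 40.7% and 14.8%, stand against 38.4% and 8.86% in the sixth of genes that holds the list's median level (6.87 log2 CPM). Gata3, the factor that defines ILC2s, had 709.5, 1141 and 1006 CPM with IL-25, against 960.1, 890.4 and 958 CPM with vehicle and was not called (log2 fold change 0.02 ± 0.13, edgeR adjusted p = 0.927). IL-25 replicate 1 was the lowest of the 6 libraries for this gene and replicate 2 the highest. Irf4, which is induced by activation in lymphocytes, had 2393, 2358 and 2347 CPM with IL-25, against 837, 845 and 996 CPM with vehicle (log2 fold change 1.41 ± 0.08, edgeR adjusted p = 4.97e-08). Prdm1 (Blimp-1, 1.04 ± 0.13), Bhlhe40 (0.70 ± 0.11) and Gfi1 (0.70 ± 0.10) rose, and Maf (-0.60 ± 0.10), Ikzf3 (-0.48 ± 0.14) and Bcl11b (-0.37 ± 0.13) fell. Ikzf3 lost the call without vehicle replicate 3 or IL-25 replicate 1 (edgeR adjusted p up to 0.0854) and Bcl11b lost the call without vehicle replicate 1 or 3 or IL-25 replicate 1 (edgeR adjusted p up to 0.146). Of 19 clock genes 2 were called higher and 5 lower (2 without vehicle replicate 1, and 3 without any other of the 6 libraries; median -0.03). Hlf, a PAR bZIP factor, had 139, 178 and 159 CPM with IL-25, against 397, 381 and 387 CPM with vehicle (log2 fold change -1.29 ± 0.10, edgeR adjusted p = 7.08e-07), and Dbp (-1.04 ± 0.25), of the same family, fell, while the core gene Arntl was not called (0.20 ± 0.10).

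Surface molecules of trafficking and contact moved in both directions. Among 22 chemokine and sphingosine phosphate receptors 4 were called higher and 5 lower (3 without vehicle replicate 3 or IL-25 replicate 2 or 3; median 0.19). Ccr4 had 900.5, 919.7 and 893 CPM with IL-25, against 305, 279.8 and 308 CPM with vehicle (log2 fold change 1.60 ± 0.08, edgeR adjusted p = 6.60e-09), and Cxcr4 (1.03 ± 0.13) and the oxysterol receptor Gpr183 (1.00 ± 0.11) rose. S1pr4 had 58.8, 49.5 and 48.1 CPM with IL-25, against 134, 136 and 128 CPM with vehicle (log2 fold change -1.35 ± 0.10, edgeR adjusted p = 4.10e-07), and the gut homing receptor Ccr9 fell at a low level (-1.35 ± 0.26). Ccr3, a receptor of eotaxins, was called higher, with 1.23, 0.473 and 0.679 CPM with IL-25, against 0, 0 and 0.0564 CPM with vehicle, too few counts for a fold. Of 18 integrins and residency genes 3 were called higher and 4 lower (2 without vehicle replicate 1; median 0.03, and -0.04 with upper-quartile factors). These shares, 16.7% and 22.2%, stand against 38.4% and 8.86% in the sixth of genes that holds the list's median level (7.53 log2 CPM). Cd44, the hyaluronan receptor, had 2882, 2889 and 2979.8 CPM with IL-25, against 1205, 1297 and 1176 CPM with vehicle (log2 fold change 1.25 ± 0.07, edgeR adjusted p = 2.10e-08), and Cd69 rose by 1.00 ± 0.12, while Itgb3 (-0.78 ± 0.09) and Itgb7 (-0.56 ± 0.08) fell. The checkpoint and B7-CD28 list had 3 higher and 2 lower (1 without vehicle replicate 3) of 19, with shares near those over all genes (median 0.03, and -0.05 with upper-quartile factors). Pdcd1lg2 (PD-L2, 0.68 ± 0.13), Klrg1 (0.53 ± 0.12) and Icos (0.30 ± 0.08) rose, Cd200r1 fell to 75.2 ± 12.4 CPM with IL-25, against 160.3 ± 4.20 CPM with vehicle (log2 fold change -1.09 ± 0.11, edgeR adjusted p = 4.88e-06), and Pdcd1 was not called (-0.18 ± 0.09). In the TGF-beta list 4 of 22 were called higher and 3 lower (median 0.05, and -0.02 with upper-quartile factors), shares of 18.2% and 13.6% that were near those over all genes. Furin rose by 1.10 ± 0.12 and Smad3 changed by -0.67 ± 0.09. The call was lost for Ccr3 without vehicle replicate 1 or 2 or IL-25 replicate 1 (edgeR adjusted p up to 0.0914) and Icos without vehicle replicate 1 or 3 (edgeR adjusted p up to 0.126). Pecam1, listed as an endothelial marker, had 262, 347 and 311 CPM with IL-25, against 118, 121 and 116 CPM with vehicle (log2 fold change 1.37 ± 0.10, edgeR adjusted p = 3.83e-07), whereas the endothelial genes Cdh5, Kdr and Vwf stayed at or under 8.46 CPM in all 6 libraries and were not called.

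Chromatin genes moved in both directions. Of 23 genes for Polycomb proteins, histone demethylases and DNA methylation 7 were called higher (3 without vehicle replicate 1 and 4 without vehicle replicate 3 or IL-25 replicate 1 or 3) and 5 lower (median -0.12). Suz12, a subunit of Polycomb complex 2 (0.60 ± 0.10), and Kdm6b, which removes the methyl mark that complex places (1.17 ± 0.19), rose. Among CBX readers of complex 1, Cbx2 fell to 1.28 ± 0.251 CPM with IL-25, against 5.70 ± 1.14 CPM with vehicle (log2 fold change -2.15 ± 0.32, edgeR adjusted p = 2.00e-04), and Cbx8 (-2.06 ± 0.31) and Cbx6 (-0.89 ± 0.12) fell too, while Cbx7 was not called (-0.36 ± 0.14). Of 323 tested genes named Zfp and a number, 21 (6.50%) were called higher (12 without vehicle replicate 1 and 13 without vehicle replicate 2 or 3) and 38 (11.8%) lower (25 without vehicle replicate 1), with a median of -0.13. These shares stand against 13.0% higher and 10.4% lower over all genes tested. The median level of the list was 3.25 log2 CPM. In the sixth of genes that holds this level (1.67 to 3.84 log2 CPM) 4.87% were called higher and 15.25% lower. The shares of the list thus show no excess of decreases over genes of like level. Zfp593 rose by 1.04 ± 0.15, and Zfp658 fell with 1.31, 1.89 and 1.30 CPM with IL-25, against 6.59, 6.38 and 5.27 CPM with vehicle (log2 fold change -2.01 ± 0.31, edgeR adjusted p = 2.48e-04).

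Several of the large changes lay beside one another on the genome (mm10; chromosome and tested neighbours from RefSeq GRCm38.p6). Il13 and Il5 lie on chromosome 11 with Rad50 between them and Il4 next to Il13. Il13 and Il5 rose, as given above, whereas Rad50 was measured at 86.7 ± 4.88 CPM with IL-25, against 83.8 ± 4.35 CPM with vehicle and was not called (log2 fold change 0.05 ± 0.10, edgeR adjusted p = 0.788), nor was Il4. Next to Il9 on chromosome 13, the tested neighbours on both sides were called higher, Fbxl21 with 67.4, 76.4 and 79.2 CPM with IL-25, against 21.1, 19.4 and 21.3 CPM with vehicle (log2 fold change 1.85 ± 0.12, edgeR adjusted p = 6.69e-08) and Slc25a48 at a low level, 1.44 ± 0.978 CPM with IL-25, against 0.274 ± 0.141 CPM with vehicle (edgeR adjusted p = 0.0121). Slc25a48 lost the call without vehicle replicate 1 or 3 or IL-25 replicate 3 (edgeR adjusted p up to 0.0795). Tnip3 and Ndnf are next to each other on chromosome 6, with 37571 bases between them. The chemokine genes Cxcl3, Cxcl1 and Cxcl2 follow each other on chromosome 5, and Il24 and Il10 are separated on chromosome 1 by Il19, which had at most 0.132 CPM as a group mean. Among the decreases, Rcan3 on chromosome 4 had both tested neighbours called lower, Nipal3 by -1.08 ± 0.11 and Ncmap by -1.98 ± 0.32, and Rab19 on chromosome 6 likewise had Slc37a3 (-0.86 ± 0.10) and Mkrn1 (-0.54 ± 0.10). Such neighbours were looked up only for the 30 genes with the largest changes, and those named are chosen cases. Most adjacent tested genes were not called, and 23.3% of all tested genes were. Some went the other way, U2surp (0.35) beside Chst2, Eif4a3 (0.40) beside Sgsh and Map6 (-0.94) beside Dgat2. Il17f also had both neighbours called higher, Il17a (1.99) at a low level and Mcm3 (0.44). Mcm3 lost the call without vehicle replicate 1 or 3 or IL-25 replicate 3 (edgeR adjusted p up to 0.0989). Whether neighbours moved together more than other genes was not tested.

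Some further genes, outside all lists and the naming rule, were chosen after their values were seen. Tph1, the enzyme of the first step of serotonin synthesis, had 408, 349 and 349.7 CPM with IL-25, against 87.8, 101 and 92.6 CPM with vehicle (log2 fold change 1.98 ± 0.10, edgeR adjusted p = 5.10e-09). Zeb2, a transcription factor, had 175, 233 and 208 CPM with IL-25, against 50.8, 41.0 and 50.7 CPM with vehicle (log2 fold change 2.11 ± 0.13, edgeR adjusted p = 5.30e-08). The matrix metalloproteinase genes Mmp10 (2.35 ± 0.21) and Mmp13 (2.08 ± 0.37), the carbonic anhydrase Car13 (2.15 ± 0.14) and the hexose transporter Slc2a6 (1.82 ± 0.11) rose as well. Tph1 and Zeb2 lay above vehicle in every IL-25 library.

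The same dose of IL-25 was also given to cells with ADM2, and these cultures share no library with the comparison above. There 1630 genes were called in IL-25 plus ADM2 versus ADM2 (10.8% of those tested), 927 higher (6.17%) and 703 lower (4.68%). Leaving out replicate 2 of IL-25 plus ADM2 gave 987 calls, leaving out its replicate 3 gave 739, and leaving out ADM2 replicate 3 gave 412 genes called lower. Of the 1947 genes that rose with IL-25 alone, 1868 (95.9%) had the same sign with ADM2, 830 (42.6%) were called in that direction and 1 in the other. Of the 1556 that fell, 1497 (96.2%) had the same sign, 589 (37.9%) were called in that direction and 2 in the other. Over all genes tested 71.7% had the same sign in both. Across the 9690 genes of at least 2 log2 CPM the log2 fold changes of the 2 comparisons correlated at r = 0.786, and over all 15028 genes at r = 0.186. These are descriptions across genes, which are not independent and share the fitted model. Il5 had 12538 and 14859 CPM with IL-25 plus ADM2, against 2103, 2079 and 1947 CPM with ADM2, and Il13 had 2333 and 2578 CPM with IL-25 plus ADM2, against 156, 134 and 143 CPM with ADM2. Both were higher with IL-25 than without in every library of these cultures too, with log2 fold changes of 2.75 and 4.09. Il9 (3.56), Il6 (4.33), Hamp (3.30), Tnip3 (3.54), Myc (1.45) and Il17rb (-0.46) kept their direction. Il4, which was not called with IL-25 alone, had 42.4 and 46.4 CPM with IL-25 plus ADM2, against 36.7, 20.8 and 25.8 CPM with ADM2 and was called higher there (log2 fold change 0.68, edgeR adjusted p = 0.0457), but the difference between the IL-25 effects was not called for this gene (edgeR adjusted p = 0.777). That call of Il4 was lost without ADM2 replicate 2 or 3 or either IL-25 plus ADM2 library (edgeR adjusted p from 0.115 to 0.257).

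A difference between the IL-25 effects with and without ADM2 was called for 5 genes (0.0333% of those tested), and 1028 genes had an unadjusted p below 0.05. Of the 11 omissions of a single library, 9 ended the call of Tagap (all but vehicle replicate 2 and IL-25 replicate 1; edgeR adjusted p up to 0.285) and all 11 that of Dnah12 (edgeR adjusted p from 0.0591 to 0.288). The call of Dnah12 was also lost with limma voom, median-ratio factors, upper-quartile factors, a minimum count of 30 or a replicate block (adjusted p from 0.0531 to 0.211), and that of Tagap with the replicate block (adjusted p = 0.0915). Tagap, a GTPase-activating protein of lymphocytes, had 79.3, 81.1 and 87.0 CPM with IL-25, against 20.9, 23.5 and 17.4 CPM with vehicle, and 35.5 and 34.0 CPM with IL-25 plus ADM2, against 20.4, 21.2 and 24.9 CPM with ADM2. Its rise was smaller with ADM2, by a difference of -1.35 ± 0.19 on the log2 scale (edgeR adjusted p = 0.0293). Dnah12, an axonemal dynein gene, rose with IL-25 alone, with 109.8, 91.8 and 93.3 CPM with IL-25, against 48.3, 47.0 and 46.8 CPM with vehicle (log2 fold change 1.05 ± 0.11, edgeR adjusted p = 5.23e-06). It had 13.2 and 14.3 CPM with IL-25 plus ADM2, against 14.2, 13.8 and 12.6 CPM with ADM2, and the difference was -1.03 ± 0.16 (edgeR adjusted p = 0.0460). Among the 5 were also 2 immunoglobulin variable segments, Ighv1-19 and Igkv17-127, whose reads can be shared with related segments. The number of genes called for this difference ranged from 0 to 47 over the alternatives.

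**Figure D4:**
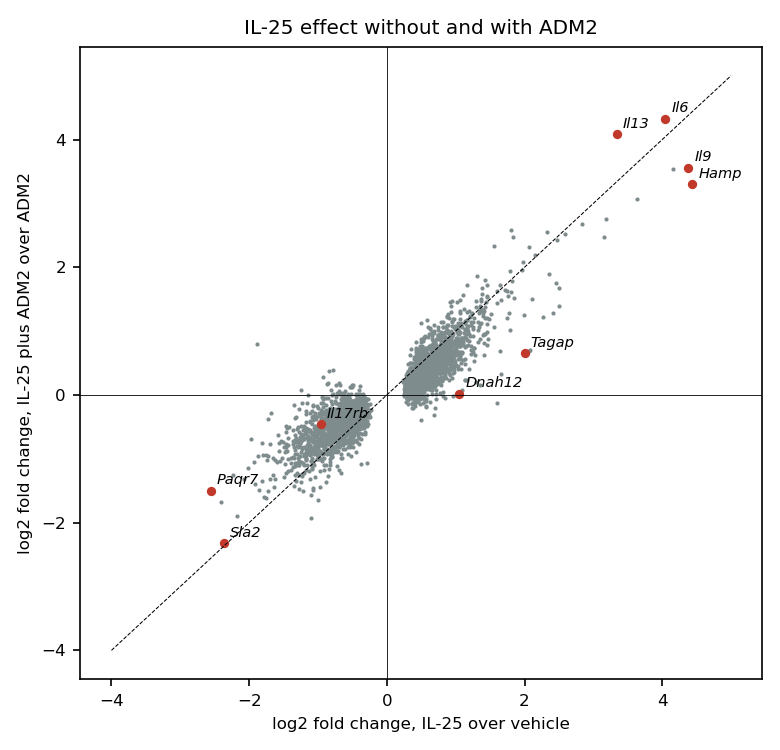
Log2 fold change of IL-25 plus ADM2 over ADM2 (y axis) against that of IL-25 over vehicle (x axis) for the 3302 called genes of at least 2 log2 CPM, in grey, with 9 genes named in red. The dashed line marks equal effects. Dnah12 and Tagap lie below it.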

How the data were processed

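Per the labels' protocols, RNA of the sorted ILC2s was isolated with the PicoPure kit and sequenced at Novogene with paired 150 bp reads. The authors deposited raw counts, 1 whole number per gene and library, keyed by Entrez ID (27179 genes in 11 libraries). The submitters' processing notes name featureCounts, limma and mm10. Aligner, annotation and use of strand: not given in the sources used here.

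Symbols, coordinates and promoters came from RefSeq's GRCm38.p6 tables, which matched 25275 IDs and left 1904, kept under their IDs. After TMM scaling and filterByExpr (minimum count 10), edgeR 4.0.16 under R 4.3.3 fitted 1 mean per group over all 11 libraries, and differences were tested with its quasi-likelihood F test. Each SE was obtained from the log2 fold change and F, as the size of the change over the root of F. The fit was also run on simulated counts, in which increases and decreases were balanced and set without regard to level. The calls here moved with level, so that run does not bear on the choice of scaling. Precision is limited by 2 or 3 libraries per group.

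Alternatives were DESeq2 1.42.0, limma voom (limma 3.58.1), scaling by median-ratio or upper-quartile factors, testing every gene, raising the minimum count to 30, fitting the compared groups alone, a replicate block and omission of each library. Named were the top 15 increases and top 15 decreases (called, at least 2 log2 CPM, groups not overlapping, no predicted genes, segments or microRNAs), 14 set genes such as Il5 and Gata3, the 3 most abundant genes, in each of 43 lists the 4 called members with the smallest p and those moving against the rest, and the genes called for the difference. Further list members were named as examples of their role. The lists and genes were chosen with earlier results of these data known, so list counts and medians carry no test. Of 262 genes named by the rule 98 overlap another annotated gene, and 31 of these a gene that is not predicted, antisense or a small RNA. Counts of these 31 are uncertain and, of those given here, include Adcy7, Bcl2l1, Bcl2l11, Cbx6, Ccnd3, Cxcl10, Cxcl16, Dbp, Dtx3l, Gpr183, Hspa5, Lpar6, Nop56, Pdcd4, Ppat, Rbl2, Sgsh and Stat2. Results of some genes that the rule names are not reported here.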

Additional observations from a re-analysis of the deposited data

Results flagged for a closer look

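The IL-25 effect was compared between cultures without and with ADM2, and a difference in that effect was called for Tagap and Dnah12, among others. For Tagap the log2 fold change was 2.00 with IL-25 over vehicle and 0.65 with IL-25 plus ADM2 over ADM2, a difference of -1.35 ± 0.19 (SE; edgeR adjusted p = 0.0293). For Dnah12 it was 1.05 and 0.02, a difference of -1.03 ± 0.16 (edgeR adjusted p = 0.0460). Leaving out a single library ended the call of Tagap in 9 of 11 cases and that of Dnah12 in all 11.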

How the results depend on the processing

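Calls for IL-25 versus vehicle numbered 2520 to 4055 over 14 alternatives, beside 3503 as reported. Leaving out 1 library gave 1284 to 1811 genes called higher, the lowest without vehicle replicate 1. Of 265 results for single genes 218 kept their direction and side of the threshold in every alternative run. Most of these genes were chosen for a large change or a small p, so this share does not describe all 3503 calls. Without vehicle replicate 1, 2468 of the 3503 were still called. Gata3, which was not called, changed sign with upper-quartile factors (-0.05) and with only the groups compared (-0.01), and ranged from -0.13 to 0.20 when 1 library was left out. The medians of 6 lists, none above 0.05, changed sign with upper-quartile factors. For IL-25 plus ADM2 versus ADM2, leaving out 1 library gave 739 to 1254 calls, 463 to 754 higher and 276 to 528 lower, and leaving out 1 of the 2 IL-25 plus ADM2 libraries assumes that the lone one varies like the other groups. The difference of the IL-25 effects was called for 47 genes with DESeq2, 47 without a filter on low counts, 1 with limma voom, 3 with a minimum count of 30, and 0 to 6 when 1 library was left out. The cause of these shifts was not tested. Deviations of same-numbered IL-25 and vehicle libraries correlated at -0.00585, -0.0683 and -0.00821, so no shared deviation was seen. With 3 libraries per group these values cannot tell whether same-numbered samples were paired. With a replicate block 3050 genes were called for IL-25 versus vehicle, 1125 for IL-25 plus ADM2 versus ADM2 and 2 for the difference. Genes of low counts were rarely called: in the sixth with the lowest levels the median SE was 1.49 on the log2 scale, and of 2505 genes 9 were called higher and 22 lower.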
